A study of Mus musculus with 6 samples.

Results

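The genes described here are 10 parts of the canonical Wnt pathway, chosen by name with earlier results of these data known. They comprise beta-catenin itself (Ctnnb1) and the 4 TCF/LEF factors that it works with on DNA (Lef1, Tcf7, Tcf7l1 and Tcf7l2). The other 5 are feedback genes (Axin2, Nkd1, Nkd2, Dact1 and Apcdd1). All 10 are among the 26814 gene symbols of the count matrix, and all 10 passed the filter on low counts that left 15009 genes for testing. The RNA came from the dissected top lip of adult female mice on a C57BL/6J background, 3 wild type (WT) and 3 homozygous for the targeted Gtf2ird1tm1Hrd allele (KO), with 1 mRNA library per mouse. Gtf2ird1 encodes a TFII-I family transcription factor whose human counterpart is lost in Williams-Beuren syndrome, and the lip was taken because its epidermis is overgrown in these mice. A whole lip holds epidermis, hair follicles, dermis, muscle, vessels and nerve, so each value below is an average over all of them.

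In canonical Wnt signalling, a complex built on Axin and Apc marks beta-catenin for destruction until a Wnt ligand arrives. Stabilised beta-catenin then enters the nucleus and joins a TCF/LEF factor on DNA, which turns target genes on. Several targets feed back on the pathway: Axin2 rebuilds the destruction complex, Nkd1 and Nkd2 bind Dishevelled, Dact1 also acts at Dishevelled, and Apcdd1 blocks the pathway at the membrane. In skin this pathway is best known for the formation and cycling of hair follicles, and beta-catenin also links cadherins to the cytoskeleton in every epithelial cell.

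The libraries held 20164081 to 29491767 counts on genes, and a count of 3 corresponded to 0.0986 to 0.154 CPM, the count scaled to library size with TMM factors. The study genotyped the mice from tail biopsies, and GTF2IRD1 is known to bind its own promoter and regulate its own transcription. The Gtf2ird1 count was not lower in the libraries labelled KO. Its level was 70.2 to 78.2 CPM in the WT libraries and 144 to 166 CPM in those labelled KO, a log2 fold change of 1.11 with a standard error of 0.13 (quasi-likelihood test of edgeR, adjusted p = 0.0018). Counts per gene cannot show which allele a read came from, so every direction here compares libraries by their label. Of the libraries labelled KO, KO3 was the nearest to the WT mean in 57.5% of all tested genes, in 65.7% of those whose KO values all lay below the WT values, and in 8 of the 10 genes described here. KO1 was the lowest KO library in 7 of the 10.

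Promoter sequence is shown for Lef1, the gene whose call passed, for Axin2, the usual readout of the pathway, and for the windows near an alternative start site that hold a LEF/TCF word. The windows are those of RefSeq on GRCm38.p6, matched for 9 of the 10 genes, and the 250 bases before the start site are printed 5′ to 3′ on the gene's strand. The first windows of Lef1 (chr3:131110047-131110296) and Axin2 (chr11:108920099-108920348) hold no match and are therefore without capitals. Capitals mark CTTTGTA or CTTTGTT on either strand, or GGATTA, a word bound by GTF2IRD1. They occur in the Lef1 window at chr3:131156044-131156293 and the Tcf7l2 window at chr19:55895071-55895320. All the windows printed lie on the plus strand of their chromosome. The Lef1 word is CTTTGTA on the minus strand and so reads TACAAAG here.
Lef1, first start: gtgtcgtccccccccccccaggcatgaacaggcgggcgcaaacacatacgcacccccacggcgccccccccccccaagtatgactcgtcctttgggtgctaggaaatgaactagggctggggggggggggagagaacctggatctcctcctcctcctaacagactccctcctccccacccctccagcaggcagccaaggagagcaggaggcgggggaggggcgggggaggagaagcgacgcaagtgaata
Axin2, start: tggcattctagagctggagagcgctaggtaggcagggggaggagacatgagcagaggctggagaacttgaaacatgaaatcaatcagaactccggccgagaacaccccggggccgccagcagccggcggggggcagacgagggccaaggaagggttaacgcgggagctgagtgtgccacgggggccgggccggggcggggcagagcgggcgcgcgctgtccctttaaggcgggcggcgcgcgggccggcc
Lef1, alternative start: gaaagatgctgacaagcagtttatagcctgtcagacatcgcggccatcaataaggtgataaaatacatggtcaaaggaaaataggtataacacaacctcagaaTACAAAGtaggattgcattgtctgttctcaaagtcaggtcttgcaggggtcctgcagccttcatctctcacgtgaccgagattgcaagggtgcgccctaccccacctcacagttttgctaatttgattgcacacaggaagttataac
Tcf7l2, alternative start: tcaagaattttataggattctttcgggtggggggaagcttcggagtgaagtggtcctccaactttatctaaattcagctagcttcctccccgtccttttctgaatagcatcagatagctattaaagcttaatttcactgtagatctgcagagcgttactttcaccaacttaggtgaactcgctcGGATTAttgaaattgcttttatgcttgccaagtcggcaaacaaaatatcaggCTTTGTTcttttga

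The LEF/TCF words searched were CTTTGAT, its variant CTTTGAA, also CTTTGTT and finally CTTTGTA, on both strands of the 300 bases around each start, and GGATTA was searched in the same way. None of the words found overlapped another. At least 1 of the 4 LEF/TCF words occurred in 16.9% of the 32851 RefSeq windows, and GGATTA in 7.06%. Among the 15 windows of these genes, 2 held a LEF/TCF word and 1 held GGATTA. The first RefSeq windows of Ctnnb1, Lef1, Tcf7, Tcf7l1, Tcf7l2, Axin2, Nkd1, Nkd2 and Dact1 held none. This says only that these letters are not in those 300 bases. For Ctnnb1 (chr9:120933150-120933449) and Nkd1 (chr8:88527383-88527682) the window lies inside the annotated gene, downstream of its first base. The sequence at the annotated start of these genes was not searched.

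Levels of different genes were compared as CPM per kilobase of annotated exon in the WT libraries. Ctnnb1 stood highest at 132 ± 23.6 (SD, n = 3). Apcdd1 followed at 11.5 ± 1.65, Tcf7 at 11.1 ± 1.06, Nkd2 at 9.88 ± 0.676 and Tcf7l1 at 9.45 ± 1.66, and neighbours in this order overlapped in their WT ranges. Axin2 came after a gap at 5.72 ± 0.387. Nkd1 at 4.49 ± 1.04, Tcf7l2 at 3.75 ± 0.349 and Lef1 at 3.06 ± 0.472 again overlapped their neighbours. Dact1 was the lowest at 1.32 ± 0.180. The order of the lower genes depended on the length used. With the longest annotated transcript in place of all exons, Tcf7l2 stood at 8.86 ± 0.825, above Axin2, and Lef1 stood at 7.37 ± 1.14, next to Axin2 at 7.39 ± 0.501.

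The quasi-likelihood test at an adjusted p of 0.05 called 1 of the 10 genes lower in the libraries labelled KO, against 2.09% of all tested genes, and 0 higher, against 4.38% (6.47% in either direction). The called gene was Lef1. At an unadjusted p under 0.05, 6 genes passed in the lower direction (16% of all tested genes) and 0 in the higher (13.5%). The 3 KO values lay below all 3 WT values in 5 genes, against 18.1% of all tested genes, and above them in 0, against 13.5%. The median log2 fold change of the 10 genes was -0.42, and that of all tested genes was -0.02. Of the 10 values, 9 were negative, as were 52% of all values. The exact test of edgeR, which the study used, called 4 genes lower and 0 higher (7.15% and 7.76% of all tested genes), namely Lef1, Tcf7l1, Nkd1 and Dact1. Without KO3, the quasi-likelihood test called 5 genes lower, the same 4 and Apcdd1, where 16.2% of all genes were called lower and 16.9% higher. With any other library left out it called 0, where 0.122% to 0.419% of all genes were called lower.

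**Figure D1:**
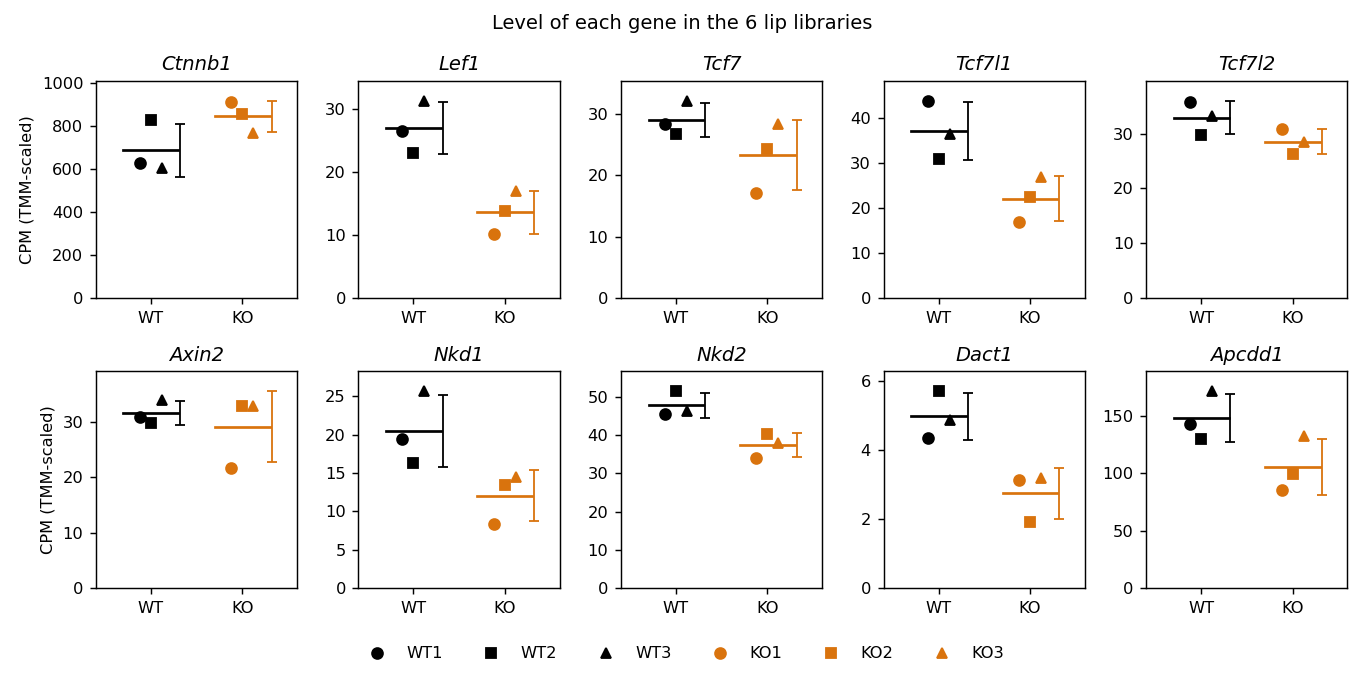
TMM-scaled CPM (vertical axes, from 0) of the 10 genes in each library, with WT in black, KO in orange and a symbol for each replicate number. Horizontal lines are means and bars are ± 1 SD (n = 3). In Lef1, Tcf7l1, Nkd1, Nkd2 and Dact1 the orange points all lie below the black ones, and in Axin2 and Ctnnb1 they overlap.

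Ctnnb1 (chromosome 9, 120929216 to 120960507, GRCm38 here and below) encodes beta-catenin. Its level was 628 CPM in WT1, 827 in WT2 and 605 in WT3, and 910 in KO1, 856 in KO2 and 767 in KO3. KO1 and KO2 lay above every WT library, and KO3 lay below WT2, so the groups overlapped. The log2 fold change was 0.30 with a 95% interval of -0.10 to 0.70 (adjusted p = 0.277, quasi-likelihood test). It was the one gene of the 10 with a positive value, and the value ran from 0.21 to 0.51 over the 6 fits that each omitted a library. The gene overlaps 4930593C16Rik and Ulk4 on the opposite strand, and the counting is not stated to have used strand. Ulk4, a kinase-like gene, was itself called higher, from a WT mean of 3.51 CPM to a KO mean of 33.4 CPM (log2 fold change 3.25, adjusted p = 6.57e-05, quasi-likelihood test), and its part in the Ctnnb1 counts was not tested.

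Lef1 (chromosome 3, 131110471 to 131224356) encodes the TCF/LEF factor best known as an activator in the hair matrix and its precursor cells. Its level was 26.5 CPM in WT1, 23.0 in WT2 and 31.3 in WT3, and 10.1 in KO1, 13.8 in KO2 and 16.9 in KO3. The highest KO library lay below the lowest WT library. Lef1 fell by 49.4% (log2 fold change -0.98 ± 0.22, SE, adjusted p = 0.0387, quasi-likelihood test). Compared with the WT mean, KO1 held 37.4%, KO2 51.4% and KO3 62.8%. Over 11 other fits the adjusted p ran from 0.00149 to 0.0456. Leaving out a library moved it to 0.134 without WT1, 0.0726 without WT2, 0.147 without WT3, 0.127 without KO1, 0.179 without KO2 and 0.00331 without KO3, while the log2 fold change stayed between -1.16 and -0.75. Without KO3, 16.2% of all genes were called lower, and without any other library 0.122% to 0.419%. Lef1 overlaps Gm43352 on the opposite strand.

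Tcf7l1 (chromosome 6, 72626378 to 72789254) encodes the family member that mainly represses targets and marks hair follicle stem cells. It had 43.8 CPM in WT1, 30.9 in WT2 and 36.5 in WT3, and 16.8 in KO1, 22.5 in KO2 and 27.0 in KO3. The groups did not overlap, and KO1 was again the lowest library. The log2 fold change was -0.75 with a 95% interval of -1.23 to -0.26 (adjusted p = 0.0731, quasi-likelihood test), and the adjusted p was 0.0086 without KO3. Under the exact test the adjusted p was 0.0176, and under DESeq2 0.0219. Gm15401, Gm15402 and Gm38320 lie on its opposite strand. Ctnnb1, Lef1, Tcf7, Tcf7l1, Tcf7l2 and Nkd1 also share ground with another annotated transcript on their own strand.

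Tcf7 and Tcf7l2 differed less. Tcf7 (chromosome 11, 52252371 to 52283014), the factor of T cells and also of epithelia, had 28.4, 26.7 and 32.2 CPM in WT1, WT2 and WT3 against 17.2, 24.3 and 28.4 CPM in KO1, KO2 and KO3. KO3 stood at 97.8% of the WT mean and KO1 at 59.1%, so the groups overlapped through KO3. The log2 fold change of Tcf7 was -0.32 with a 95% interval of -0.78 to 0.14 (adjusted p = 0.31, quasi-likelihood test), and without KO1 it was -0.08. A630014C17Rik lies on the opposite strand of Tcf7. Tcf7l2 (chromosome 19, 55741820 to 55933654) had 35.8, 29.7 and 33.2 CPM in the WT libraries and 30.8, 26.3 and 28.5 CPM in the KO libraries. Here KO1 was the highest KO library and stood within the WT range. Its log2 fold change was -0.21 with a 95% interval of -0.53 to 0.11 (adjusted p = 0.343, quasi-likelihood test).

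**Figure D2:**
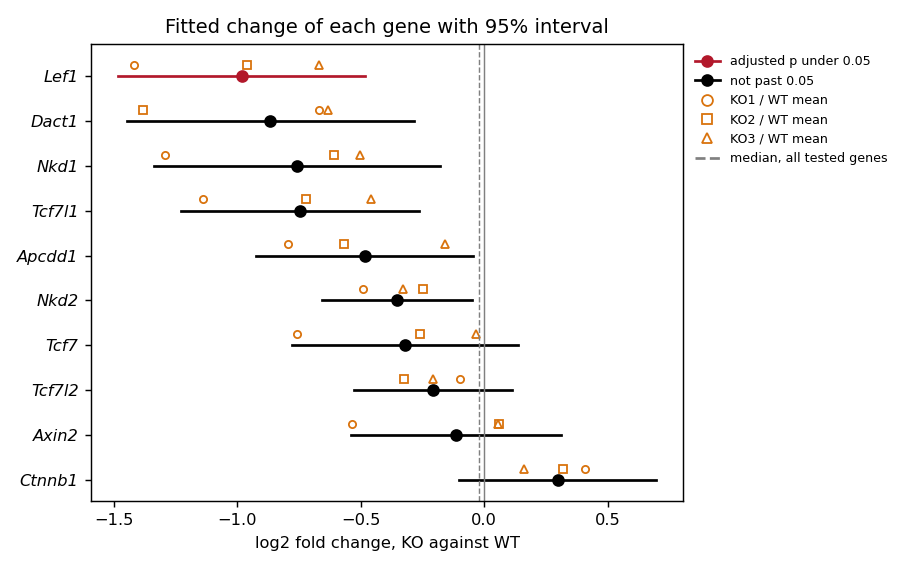
Fitted log2 fold change of each gene (horizontal axis, KO against WT) with its 95% interval, red where the adjusted p is under 0.05. Open orange symbols give the log2 ratio of each KO library to the WT mean, and the dashed line is the median of all tested genes at -0.02. Lef1 is the red point at -0.98, and the intervals of Ctnnb1, Axin2, Tcf7l2 and Tcf7 include 0.

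The make-up of the TCF/LEF transcripts was described as each gene's share of the 4 genes' summed counts per kilobase of exon, which needs no scaling between libraries. Lef1 made up 10.4%, 10.9% and 12.3% in WT1, WT2 and WT3, and 7.40%, 8.06% and 8.41% in KO1, KO2 and KO3. Its mean share was 3.23 percentage points lower in the libraries labelled KO (7.96% ± 0.511 against 11.2% ± 1.02, SD, n = 3, two-sided exact permutation p = 0.1, adjusted p = 0.133 over 4 shares). Tcf7l1 had 34.4% ± 3.46 in the WT and 29.0% ± 1.20 in the libraries labelled KO, also without overlap (exact permutation p = 0.1, adjusted p = 0.133). Tcf7 made up 40.6% ± 2.99 and 45.6% ± 2.91 (exact permutation p = 0.3). Tcf7l2 had 13.7% ± 0.551 and 17.4% ± 4.57, where KO1 alone reached 22.6% and KO3 stood at 14.2% (exact permutation p = 0.1). The shares sum to the whole, and the log2 fold changes of Tcf7 and Tcf7l2 themselves were -0.32 and -0.21. A permutation test of 3 libraries against 3 cannot go below 0.1.

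**Figure D3:**
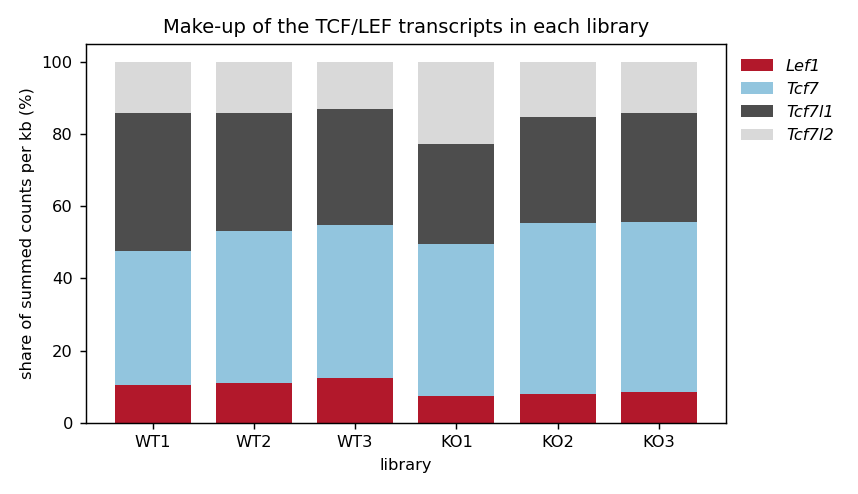
Share of each TCF/LEF gene in the summed counts per kilobase of the 4 genes (vertical axis, percent, stacked to the whole) in each library. The red Lef1 block takes 10.4% to 12.3% in the WT libraries and 7.40% to 8.41% in the KO libraries. Tcf7 takes the largest block in every library except WT1, where Tcf7l1 does.

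Axin2 (chromosome 11, 108920349 to 108950783) is the feedback gene most often read as a sign of canonical signalling. It had 30.8 CPM in WT1, 29.8 in WT2 and 33.9 in WT3, and 21.7 in KO1, 32.8 in KO2 and 32.7 in KO3. KO1 was low and KO2 and KO3 lay within the WT range. The log2 fold change was -0.11 with a 95% interval of -0.54 to 0.31 (adjusted p = 0.704, quasi-likelihood test), and without KO1 it turned to 0.12. Gm11670 overlaps it on the opposite strand.

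Nkd1 and Nkd2 encode paralogous inhibitors that bind Dishevelled. Nkd1 (chromosome 8, 88521354 to 88594884) had 19.4, 16.3 and 25.6 CPM in WT1, WT2 and WT3 and 8.34, 13.4 and 14.4 CPM in KO1, KO2 and KO3, without overlap. Its log2 fold change was -0.76 with a 95% interval of -1.34 to -0.18 (adjusted p = 0.0998, quasi-likelihood test; 0.0244 without KO3). Nkd2 (chromosome 13, 73818534 to 73847631) was more even within each group, at 45.3, 51.4 and 46.3 CPM in WT1, WT2 and WT3 and 33.9, 40.1 and 37.9 CPM in KO1, KO2 and KO3, again without overlap. Its log2 fold change was -0.35 with a 95% interval of -0.66 to -0.05 (adjusted p = 0.125, quasi-likelihood test). The intervals of the paralogues overlap, and the difference between them was not tested. Gm8062 lies on the opposite strand of Nkd2.

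Dact1 (chromosome 12, 71309884 to 71320107), a Dishevelled-binding protein known mostly from mesenchyme, was the scarcest of the 10. It was counted 120, 134 and 108 times in WT1, WT2 and WT3 and 61, 58 and 70 times in KO1, KO2 and KO3, or 4.36, 5.70 and 4.86 CPM against 3.12, 1.91 and 3.20 CPM. The groups did not overlap, and KO2 rather than KO1 was the lowest. The log2 fold change was -0.87 with a 95% interval of -1.45 to -0.28 (adjusted p = 0.0782, quasi-likelihood test; 0.0201 without KO3). The gene overlaps 4930474H06Rik on the opposite strand. Apcdd1 (chromosome 18, 62922231 to 62961179), a membrane-bound Wnt inhibitor known from hair follicles, had 143, 130 and 171 CPM in WT1, WT2 and WT3 and 85.2, 99.7 and 132 CPM in KO1, KO2 and KO3. KO3 stood just above WT2, so the groups overlapped. Its log2 fold change was -0.48 with a 95% interval of -0.92 to -0.04 (adjusted p = 0.141, quasi-likelihood test), and without KO3 it was -0.67 (adjusted p = 0.013).

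Because Axin2 differed so little between the groups, the other genes were also counted against it within each library, a comparison chosen after the values had been seen. Axin2 was uneven among the KO libraries, at 68.9% of the WT mean in KO1 and 104% in KO2 and KO3. Its low level in KO1 raises every ratio of that library. Lef1 had 85.9, 77.4 and 92.4 counts per 100 counts of Axin2 in WT1, WT2 and WT3, and 46.5, 42.2 and 51.7 in KO1, KO2 and KO3. KO3 was again the highest KO library, and the KO mean was 54.9% of the WT mean. Tcf7l1 had 104 to 142 counts per 100 of Axin2 in the WT and 68.6 to 82.4 in the libraries labelled KO. Nkd1 had 54.9 to 75.7 and 38.4 to 44.1. Tcf7 (92.3 ± 2.55 against 80.0 ± 6.46, SD, n = 3) and Apcdd1 (437 to 506 against 304 to 405), which both overlapped in CPM, were separated on this ratio. In 5 of the 9 genes, then, the KO ratios lay below all WT ratios, against 10.7% of all tested genes, and in 0 they lay above, against 10.4%. Ctnnb1, Tcf7l2, Nkd2 and Dact1 overlapped on this ratio. Nkd2 and Dact1, which did not overlap in CPM, did so here through KO1, at 156 and 14.4 counts per 100 of Axin2.

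**Figure D4:**
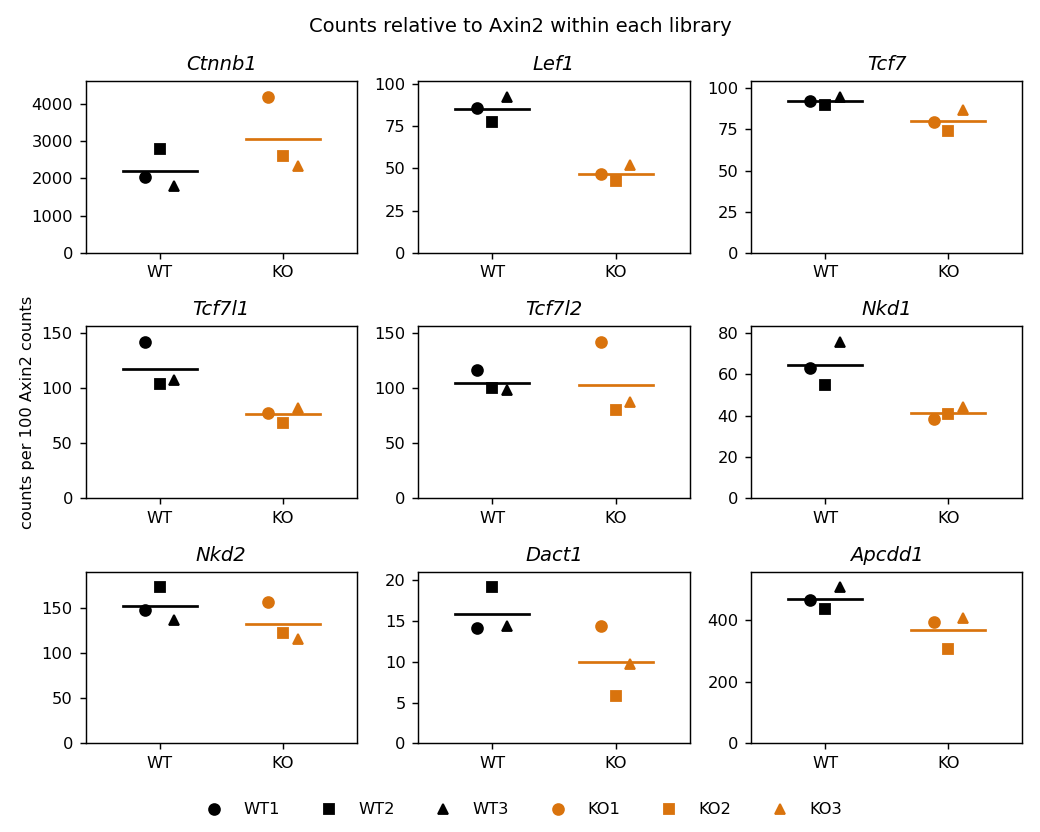
Counts of each gene per 100 counts of Axin2 in the same library (vertical axes, from 0), with WT in black, KO in orange, a symbol for each replicate number and lines at the means (n = 3). The Lef1 points lie at 77.4 to 92.4 in the WT and at 42.2 to 51.7 in the KO libraries, and KO1 stands apart for Ctnnb1.

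Genes with a like pattern were found by the root mean square difference of centred log2 CPM over the 6 libraries. Nearest to Lef1 were Msx2 (0.0547), Hoxc13 (0.0767) and Alx4 (0.0801). All 3 are homeobox genes, and Msx2 and Hoxc13 are known from the hair matrix. Of the other 9 genes, Nkd1 was the nearest to Lef1, at 0.147 and place 84 among all tested genes. Axin2 was nearest to Rasgrp4 (0.0443), Notch1 (0.0751) and 3110009E18Rik (0.0788), and Ctnnb1 to Tbc1d14 (0.0328), Kbtbd4 (0.0333) and Zmpste24 (0.0353). Of the other 9, the nearest to Ctnnb1 was Tcf7l2, at place 7290 and 0.344, and the nearest to Axin2 was Tcf7, at place 88 and 0.125.

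Outside these 10 genes, 75 genes of the pathway were listed in 4 groups. Of these, 74 were in the matrix and 67 were tested, with a median log2 fold change of 0.02. The quasi-likelihood test called 2 lower, Wif1 and Bambi, and 2 higher, Pygo1 and Cd44, where 2.09% and 4.38% of all tested genes were called. Without KO3 it called 12 lower and 11 higher, where 16.2% and 16.9% of all genes were called, so these counts lie near the background. Without WT2 it called 0 lower and 2 higher, without WT1 or WT3 0 in either direction, and without KO1 or KO2 0 lower and 1 higher. In these fits 0.122% to 0.419% of all genes were called lower and 1.41% to 3.22% higher.

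Dishevelled, the destruction complex and the enzymes that turn beta-catenin over made up 20 genes. The quasi-likelihood test called 0 of them, where 2.09% of all tested genes were called lower and 4.38% higher. At an unadjusted p under 0.05, 1 was lower and 2 were higher, against 16% and 13.5% of all tested genes. The exact test called 0, against 7.15% and 7.76%. The median log2 fold change was 0.06. The lowest p-values belonged to Dvl2, a Dishevelled that passes the Wnt signal on (log2 fold change -0.44, adjusted p = 0.0925), and to Amer1, a partner of Apc (0.47, adjusted p = 0.088). Among 21 nuclear co-activators and co-repressors, with a median of 0.03, Pygo1 alone was called, in the higher direction. At an unadjusted p under 0.05, 2 of the 21 were lower and 4 were higher, against 16% and 13.5%. The exact test called 0 lower and 1 higher, against 7.15% and 7.76%. Pygo1 binds the Bcl9 bridge on beta-catenin, and it rose from 13.2, 14.2 and 11.4 CPM in the WT to 24.5, 23.7 and 22.1 CPM in the KO libraries, by 0.85 on the log2 scale with a standard error of 0.15 (adjusted p = 0.0153). All 3 KO values lay above the WT values and close together.

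Of 20 other genes that canonical Wnt signalling is known to induce, 15 were tested, with a median log2 fold change of -0.49, 10 values negative and 5 positive. Wif1, a secreted Wnt inhibitor, fell from 29.0, 30.7 and 33.8 CPM to 16.8, 17.0 and 20.2 CPM (log2 fold change -0.79 ± 0.15, SE, adjusted p = 0.0192). Bambi, a pseudoreceptor of the BMP and TGF-beta pathways, fell from 29.8, 31.5 and 31.5 CPM to 20.6, 21.3 and 21.4 CPM (log2 fold change -0.55 ± 0.12, SE, adjusted p = 0.0427). Cd44, the hyaluronan receptor, rose from 225, 237 and 208 CPM to 399, 352 and 391 CPM (log2 fold change 0.77 ± 0.13, SE, adjusted p = 0.0129). At an unadjusted p under 0.05 the list had 8 genes lower and 2 higher, against 16% and 13.5% of all tested genes. The groups did not overlap in 8 lower and 3 higher genes, against 18.1% and 13.5%, and the exact test called 4 lower and 1 higher, against 7.15% and 7.76%. Of the cadherin partners and paralogues of the 10 genes, 13 of 14 were in the matrix and 11 were tested (median 0.37). The quasi-likelihood test called 0 of them, where 2.09% of all tested genes were called lower and 4.38% higher. At an unadjusted p under 0.05, 2 were lower and 3 were higher, against 16% and 13.5%. The exact test called 1 of these genes lower and 0 higher, against 7.15% and 7.76%. Their lowest p-values were those of Ctnnd2 (-0.65, adjusted p = 0.0726) and Ctnnd1 (0.43, adjusted p = 0.0774), catenins of the p120 family.

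Lists of cell type markers were read from the same libraries, since in whole lip fewer cells of a type and less RNA per cell cannot be told apart. The marker counts below stand against 2.09% of all tested genes called lower and 4.38% called higher, 16% and 13.5% at an unadjusted p under 0.05, and 7.15% and 7.76% called by the exact test. Every listed marker in the matrix had counts in at least 1 library, and Krt85 was the one marker not matched. The 19 hair follicle markers summed to 11115 to 14296 CPM in the WT and to 6669 CPM in KO1, 9265 in KO2 and 9408 in KO3. Of these markers, 18 had a negative log2 fold change (median -0.54) and 2 were called lower (13 at an unadjusted p under 0.05, exact test 5). The 14 dermal fibroblast markers summed to 7143 to 9262 CPM in the WT and to 3134, 3941 and 7428 CPM in KO1, KO2 and KO3, with 12 of 14 values negative (median -0.64) and 0 called (5 at an unadjusted p under 0.05, exact test 3). The skeletal muscle list summed to 10839 to 14481 CPM in the WT and to 4612, 5842 and 9108 CPM in KO1, KO2 and KO3. Of its 14 genes 13 were tested, all negative (median -1.04, 4 called lower, 13 at an unadjusted p under 0.05, exact test 11). The order KO1, KO2, KO3 from low to high was shown by Lef1, Tcf7, Tcf7l1, Nkd1 and Apcdd1. The sums of the hair follicle, dermal fibroblast and skeletal muscle lists had it, as did those of the endothelial, dermal papilla and T cell lists. In the T cell list KO1 was the nearest to the WT mean, at 112%, and KO3 the farthest, at 190%. Not every marker followed its list, and Dcn of the fibroblast list was lowest in KO3. The share of all genes with this order was not counted. How far the shifts of the marker lists enter the values of Lef1 and the others was not tested.

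The 10 dermal papilla markers summed to 72.2 to 82.3 CPM in the WT and to 73.5 to 81.9 CPM in KO libraries. This sum holds changes in opposite directions. Fgf7, the 1 marker called higher, rose from a WT mean of 10.1 CPM to a KO mean of 30.8 CPM. The other 9 values were negative (median of all 10 -0.40), 4 of them at an unadjusted p under 0.05. The exact test called 1 lower and 1 higher. The 10 basal keratinocyte markers summed to 11419 to 12343 and 11693 to 12955 CPM (median -0.01, 1 called higher, exact test 1). At an unadjusted p under 0.05, 1 of them was lower and 2 were higher. The 10 suprabasal keratinocyte markers summed to 20520 to 25241 CPM in the WT and to 31583 to 48207 CPM in KO libraries. Of these, 9 of 10 were positive (median 0.52, 1 called higher, 5 at an unadjusted p under 0.05, exact test 5). T cells express Lef1 and Tcf7 strongly. Their 14 markers (9 tested, all positive, median 0.67, 0 called, 4 at an unadjusted p under 0.05, exact test 1) summed to no more than 24.0 CPM in the WT and 38.5 CPM among the KO libraries, with KO1 inside the WT range, and their part in the values of Lef1 and Tcf7 was not tested. Endothelial markers (10 of 10 negative, median -0.48, 0 called, 5 at an unadjusted p under 0.05, exact test 1) summed to 252 to 297 and 171 to 269 CPM. Schwann cell markers (10 of 10 negative, median -0.62, 0 called, 5 at an unadjusted p under 0.05, exact test 2) summed to 685 to 718 and 393 to 613 CPM.

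**Figure D5:**
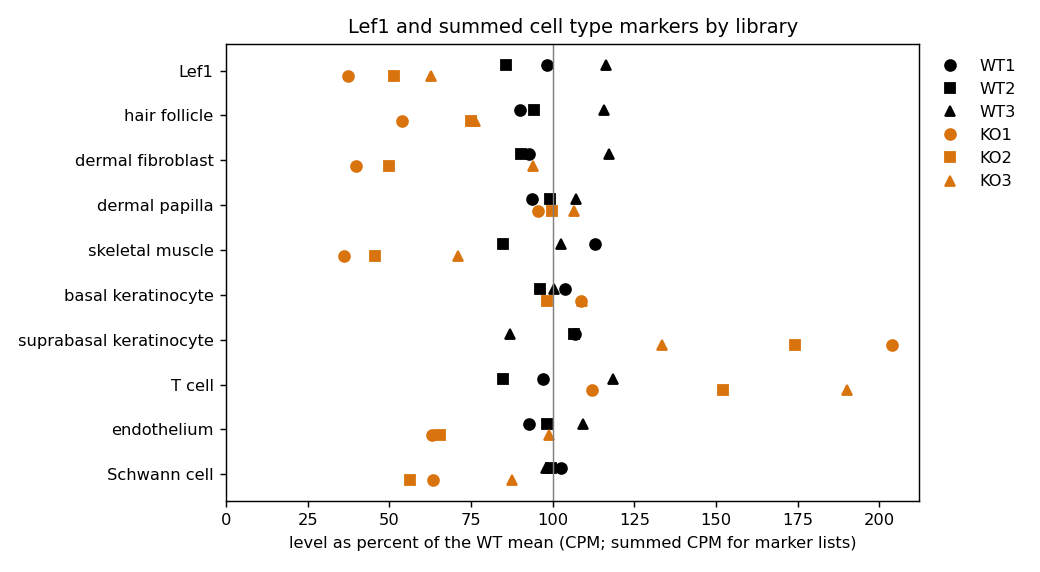
Level in each library as a percent of the WT mean (horizontal axis, from 0), for Lef1 in CPM and for the summed CPM of each of the 9 marker lists, with WT in black and KO in orange. Lef1 lies at 37.4% to 62.8% in the KO libraries, the hair follicle, muscle and Schwann cell lists also lie below all WT libraries, and the suprabasal keratinocyte list lies above them.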

How the data were processed

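The authors aligned their paired reads with TopHat2 2.0.8 and Bowtie2 2.1.0 to GRCm38 and deposited whole-number counts of uniquely mapped reads per gene symbol from HTSeq-count, without normalization. Its overlap mode and its handling of strand are not given in the sources used here. All 6 columns were used, 0 were left out and 0 rows named no gene. Genes that reached 1 CPM in 3 or more libraries were tested with edgeR 4.0.16 in R 4.3.3 (TMM, estimateDisp, glmQLFit with legacy=FALSE, glmQLFTest) and Benjamini-Hochberg adjustment over all tested genes, at a threshold of 0.05. Standard errors were derived from the log2 fold change and the F statistic of that test, and the 95% intervals from these errors. Limits based on 3 counts cover counting error only.

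Alternatives were edgeR's exact test, DESeq2 1.42.0, limma-voom (limma 3.58.1), the older and the robust quasi-likelihood fit, upper-quartile normalization, scaling by DESeq2's size factors or by library size alone, no filter, at least 10 counts in every library, a replicate block, a threshold of 0.1, and leaving out each of the 6 libraries. Positions and exon lengths are those of GENCODE M21 on GRCm38, and promoter windows those of RefSeq. Log2 CPM for likeness used a prior count of 2.

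The members and lists were chosen with earlier results of these data known. Named are all 10 members, Gtf2ird1, called genes of each pathway list or else the lowest p in each direction, marker list totals, and for Ctnnb1, Lef1 and Axin2 the 3 genes most alike. Fgf7 and the ratio to Axin2 were picked after values were seen. Nothing says whether the mice were littermates, and the p-values of the main test treat the libraries as independent. Python 3.11.15 and matplotlib 3.10.9 drew the figures.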

Additional observations from a re-analysis of the deposited data

How the results depend on the processing

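Of the 10 members, 1 was called lower by the quasi-likelihood test; edgeR's exact test called 4 (7.15% of all genes), DESeq2 called 3 (7.61%), a threshold of 0.1 gave 4 (8.53%), and the other alternatives, the replicate block included, gave 1. With each library left out the count ran from 0 to 5, with 5 only without KO3, and the count called higher was 0 throughout. The share of all genes called lower was 16.2% without KO3 and 0.122% to 0.419% without any other library. For the other pathway genes, the 2 called lower became 5 with the exact test (7.15% of all genes), 8 with DESeq2 (7.61%) and 10 at a threshold of 0.1 (8.53%). They became 1 with DESeq2's size factors, with library size alone and with the replicate block. The count was also 1 without the filter and with at least 10 counts in every library. In those fits 0.761% to 1.67% of all genes were called lower. With each library left out the count ran from 0 to 12, with 12 only without KO3 (16.2%). The 2 called higher became 8 with DESeq2 (9.5% of all genes) and 6 at a threshold of 0.1 (8.32%). With each library left out they ran from 0 to 11, with 11 only without KO3 (16.9%). Without any other library 1.41% to 3.22% of all genes were called higher. The cause was not tested. The log2 fold change of Axin2, with a library left out, ran from -0.20 (without KO3) to 0.12 (without KO1), which reversed its sign. The Lef1 share changed from -3.23 to -5.19 percentage points with the longest transcript as length, which for Lef1 is much shorter than its summed exons. Between scalings the median of all genes moved from -0.08 (upper quartile) to 0.00475 (DESeq2's size factors), and 9 of the 10 members stayed negative under each scaling. The call on Gtf2ird1 held throughout. The labels do not say that replicate numbers pair the mice. Deviations of same-numbered libraries correlated at -0.19, 0.29 and 0.31 across genes, and not every library correlated best with its own number. With 3 libraries in each group these correlations cannot decide whether the mice were paired. With the block, 217 genes of the whole table were called lower and 580 higher in place of 314 and 657. Depth limits Dact1 most, at 58 to 134 counts a library.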
